A study of Mus musculus with 16 samples.

Results

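The genes described here are 42 type I interferon-stimulated genes, chosen by symbol and spanning RNA sensors, antiviral effectors and regulators, out of 55401 genes quantified in the series. All 42 were found by gene identifier, and 41 had enough reads to be tested among 15277 genes. Oas1g was not tested, since it held 2 rounded reads in library 5, 1 in library 13 and 0 in the 14 others.

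The cells were splenic mouse CD8+ T cells of the OT-I line, which carry a transgenic receptor for an ovalbumin (OVA) peptide. WT cells were compared with TPdh-/- cells, from crosses of floxed Pdha1 mice (strain B6.129P2-Pdha1tm1ptl/J) with a Cd4-cre line (B6.Cg-Tg(Cd4-cre)1Cwi/BfluJ), so that Cre acts in T cells from the stage at which CD4 is expressed and Pdha1, which encodes E1 alpha of pyruvate dehydrogenase (PDH), is deleted in CD8+ as well as CD4+ cells. Male and female mice of 8 to 12 weeks were used, and all cells had 3 days of activation by the OVA peptide and were then kept for 4 days with IL-2 to give effector cells (TE) or with IL-15 at 10 ng/mL to give memory cells (TM). The 4 groups held 4 libraries each, numbered 1 to 4 (WT TE), 5 to 8 (TPdh-/- TE), 9 to 12 (WT TM) and 13 to 16 (TPdh-/- TM). Separate mice are not named in the labels for libraries of 1 group, so p values measure the spread between these libraries. No group was treated with interferon.

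Type I interferons bind the receptor IFNAR, which activates the kinases JAK1 and TYK2 and, through them, the transcription factor ISGF3, of which IRF9 is a part. ISGF3 binds the interferon-stimulated response element (ISRE) in promoters of many interferon-stimulated genes. Products of the genes described here sense viral RNA, block viral entry, translation or replication, and in a few cases restrain the pathway itself. Several are also induced by other interferons, and T cells express many of them at a basal level.

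Library totals ran from 53007257 to 73507566 counts. Levels are given in 2 units: TPM, which is scaled for gene length and allows comparison between genes, and CPM, counts scaled to the library total and normalised by the trimmed mean of M values (TMM), which is the scale of the tests and is used for values in single libraries. Differences are log2 fold changes from an edgeR quasi-likelihood fit. The SE given after ± is not from that fit and does not set the adjusted p. It comes from the spread of log2 CPM, with a prior count of 2, between libraries of the groups compared. The prior count narrows it for genes with few reads. A gene is called higher or lower where p adjusted over all genes tested (Benjamini-Hochberg) was under 0.05. Among 8 T cell markers, group means of Cd8a ran from 314 to 798 TPM and those of Cd8b1 from 285 to 797, and Cd4 averaged at most 0.365 TPM. The summed level of the 8 was lower without PDH, at 3970 to 4240 TPM in WT TE and 3090 to 3420 in TPdh-/- TE, and 4830 to 5060 in WT TM and 3940 to 4130 in TPdh-/- TM. The genes did not fall alike. From WT TM to TPdh-/- TM, means went from 798 to 500 TPM for Cd8a, 797 to 484 for Cd8b1 and 517 to 354 for Trac. Lck (607 to 507) and Cd3e (333 to 289) fell less, and Cd3d (651 to 654), Cd3g (875 to 868) and Cd2 (380 to 369) changed little. In TE the means of Cd8a (314 to 318) and Lck (525 to 532) did not fall, and the others did. Pdha1 itself averaged 68.6 TPM in WT TE, 71.7 in TPdh-/- TE, 89.8 in WT TM and 75.2 in TPdh-/- TM. These counts cover the whole gene, so a deleted exon cannot be seen in them and they do not check the genotype labels.

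The ISRE core was looked for in the 250 bases before the start sites of each gene, in RefSeq promoters of build GRCm38.p6. The ISRE is the sequence that ISGF3 binds, and binding was not measured here. The letters searched were GAAANNGAAA on either strand, where N is any base. Of the 42 genes 31 were in the promoter table, and 13 of the 31 (41.9%) held the core, against 936 of 27025 genes with a promoter (3.46%). Dhx58, Zbp1, Oas1b, Oas2, Usp18, Mx1, Mx2, Parp9, Parp14, Ifi27 and Rtp4 were not looked at. The stretches below show the core for genes to which the results return, on the strand of the gene from 5′ to 3′, with the bases of each core in capitals and 20 bases on either side. A core on the opposite strand reads as TTTCNNTTTC.
Isg15: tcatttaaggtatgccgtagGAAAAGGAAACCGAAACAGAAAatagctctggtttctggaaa
Ifit1: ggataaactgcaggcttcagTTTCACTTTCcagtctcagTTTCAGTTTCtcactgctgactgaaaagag
Ifit3: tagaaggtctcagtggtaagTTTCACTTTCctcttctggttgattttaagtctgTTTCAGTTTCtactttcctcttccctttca
Ifit3b: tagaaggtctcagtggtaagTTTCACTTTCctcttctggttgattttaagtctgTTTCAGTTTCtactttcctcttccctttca
Rsad2: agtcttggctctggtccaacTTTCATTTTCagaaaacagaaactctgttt
Bst2: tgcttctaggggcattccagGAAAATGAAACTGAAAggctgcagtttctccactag
Slfn5: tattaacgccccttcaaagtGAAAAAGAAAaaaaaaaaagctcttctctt
Ifitm2: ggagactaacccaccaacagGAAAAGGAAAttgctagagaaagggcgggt

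Isg15 (chr4:156200855-156200916, minus strand) held 3 overlapping cores, between 78 and 57 bases before its start. Ifit1 (chr19:34640765-34640833, plus strand) held 2 cores on the opposite strand, as did Ifit3 (chr19:34583353-34583436, plus strand) and Ifit3b (chr19:34607749-34607832, plus strand). The stretches of Ifit3 and Ifit3b are the same letter for letter, and reads of this near-identical pair may be shared out between them by the quantification. Bst2 (chr8:71537567-71537622, minus strand) held 2 overlapping cores, and 1 core each was found in Rsad2 (chr12:26456543-26456592, minus strand), Slfn5 (chr11:82951927-82951976, plus strand) and Ifitm2 (chr7:140955978-140956027, minus strand). The gene annotation starts Slfn5 at chr11:82951349, so its stretch lies inside the gene by that annotation and before a later RefSeq start. No match lay in the windows of Ifit2, Oasl1, Oasl2, Ifitm1, Ifitm3 or Ifi44 among others, which says only that these letters are not in those 250 bases.

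Levels differed widely among the 42 genes. The median gene held 16.3 TPM in WT TE, 29.2 in TPdh-/- TE, 19.4 in WT TM and 20.7 in TPdh-/- TM. In TE the most abundant were Ifitm1 and Ifitm2, with 3062 and 943 TPM in WT. In TM the most abundant was Samhd1, which encodes an enzyme that degrades deoxynucleotides, with 592 TPM in WT and 716 in TPdh-/-, followed by Ifi27 with 399 and 450. Genes commonly used to read an interferon response were low in WT cells: in WT TE Isg15 averaged 14.7 TPM, Ifit3 3.83, Ifit1 1.53, Usp18 1.13, Rsad2 0.585 and Oasl2 0.513. Between 4 and 9 of the 42 genes averaged under 1 TPM, according to the group.

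In TE most of these genes were higher without PDH. Of the 41 tested, 24 were called higher and 2 lower in TPdh-/- TE than in WT TE, where 17.3% of all genes were called higher and 14.3% lower. Their median difference was 0.33 on the log2 scale, against -3e-04 over all genes. With library totals in place of TMM factors the counts were 33 higher and 2 lower, and over all genes 3710 higher and 1242 lower in place of 2641 and 2182. In TM fewer were called: 15 higher and 2 lower, where 11.0% of all genes were called higher and 7.27% lower, with a median of 0.23 against -0.0048. Ifi44, Ifih1, Oasl1, Oasl2, Parp14, Slfn8 and Usp18 were called higher in both cultures. A further 16 were called higher in TE and not called in TM, 8 were called higher in TM and not called in TE, and Dhx58 was called higher in TE and lower in TM. Alternative fits called some of these in the other culture too. In TE at least 1 called Mx1, Parp9, Zbp1, Samhd1, Ddx58 and Ifitm3 higher and Ifitm2 lower. In TM at least 1 called Rtp4, Slfn5, Oas1a and Isg20 higher and Oas2 lower.

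**Figure D1:**
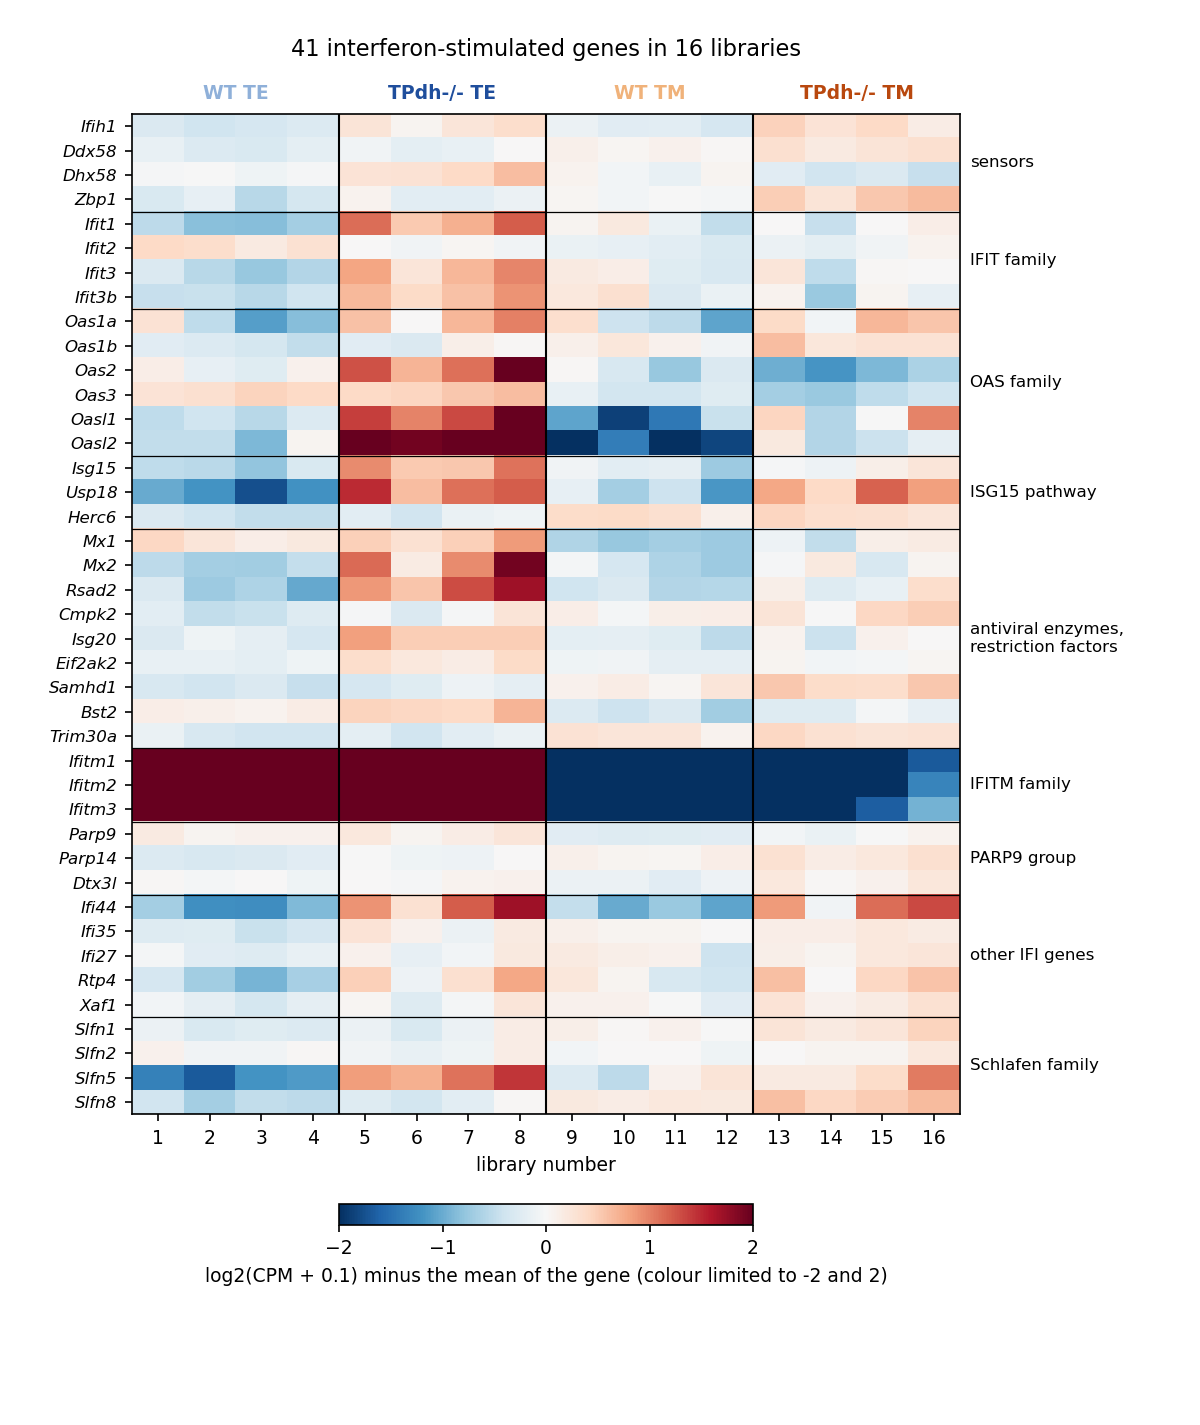
Heat map of the 41 genes tested (rows, by role) in the 16 libraries (columns). Colour gives log2(CPM + 0.1) minus the mean of that gene over all libraries, in log2 units and limited to -2 and 2. Most rows of the OAS, IFIT and ISG15 groups are reddest in libraries 5 to 8 (TPdh-/- TE), and the IFITM rows separate TE from TM.

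Whether the genotype difference itself depended on the culture was tested as an interaction, the difference in TM minus that in TE. Of the 41 genes 14 had a called interaction below 0 and 5 above 0, where 7.51% of all genes were called below and 8.05% above. The median interaction was -0.15, against -0.007 over all genes. Ifit1, Ifit3, Ifit3b, Oas2, Oas3, Isg15, Usp18, Dhx58, Mx2, Rsad2, Isg20, Eif2ak2, Ifi35 and Slfn5 were below 0. Ifitm1, Ifitm2, Ifitm3, Ifit2 and Dtx3l were above 0.

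**Figure D2:**
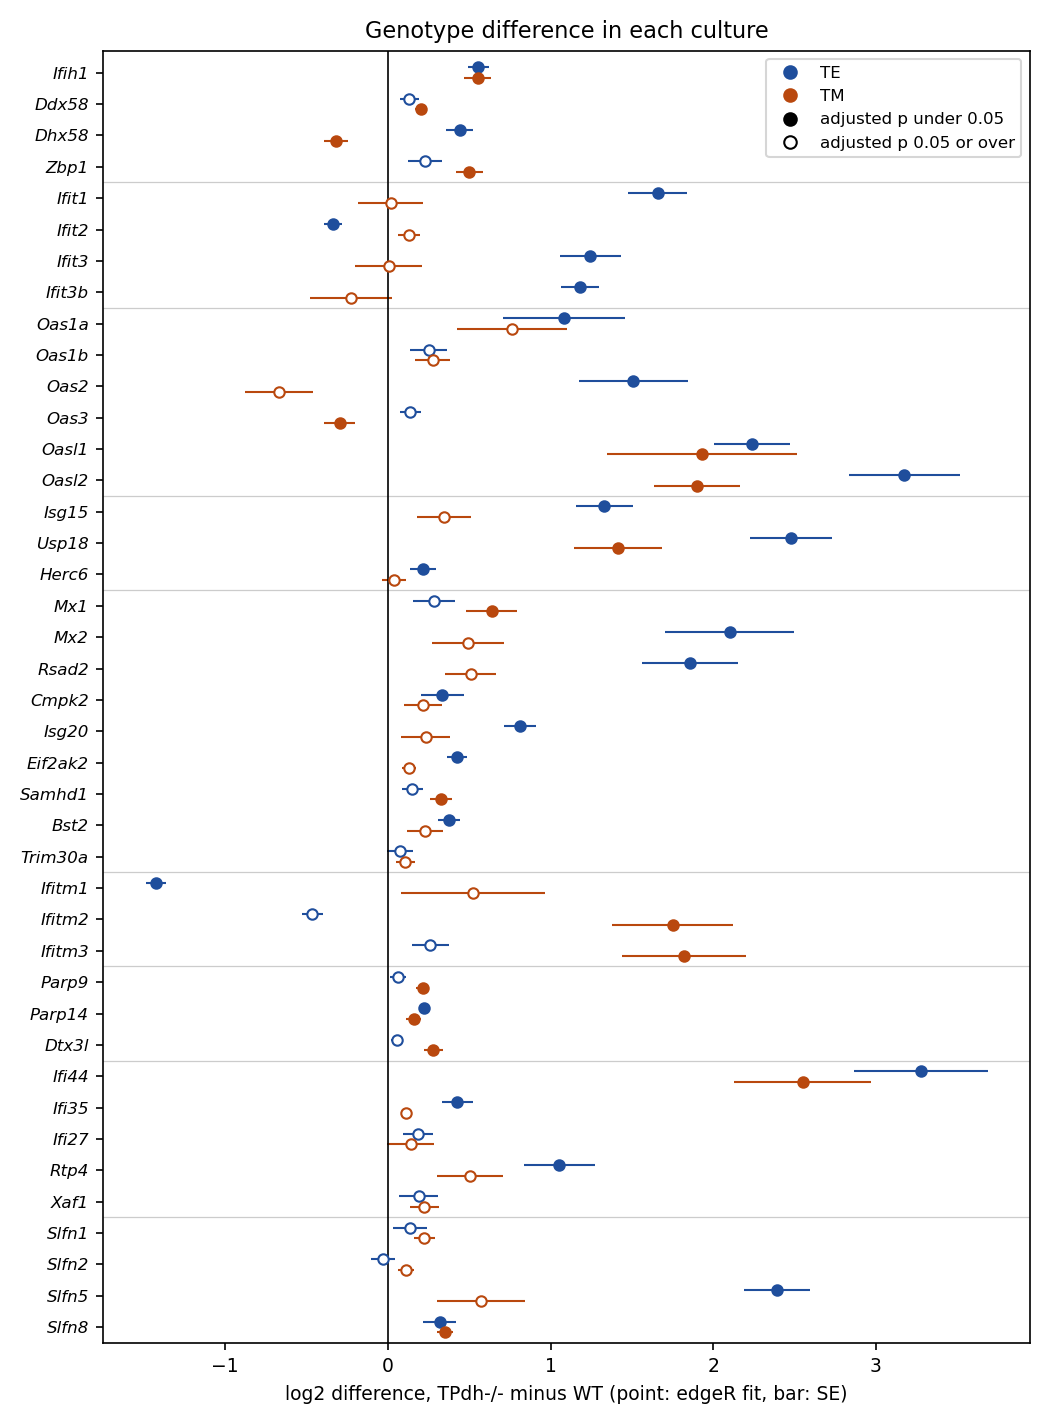
Log2 difference between TPdh-/- and WT for each gene (rows) in TE (blue) and TM (orange); points are the edgeR fit, bars the SE, and filled points have adjusted p under 0.05. Blue points of Oasl2, Ifi44, Usp18, Slfn5, Oasl1 and Mx2 lie beyond 2, while Ifitm1 lies at -1.43 in TE.

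In the ISG15 group all 3 genes were called higher in TPdh-/- TE, where 17.3% of all genes were. Isg15 encodes a ubiquitin-like modifier. Its CPM was 5.65, 5.54, 4.66 and 6.55 in the WT TE libraries, 15.7, 11.7, 11.8 and 17.2 in TPdh-/- TE, 7.67, 7.0, 7.14 and 4.87 in WT TM, and 7.94, 7.52, 8.74 and 9.64 in TPdh-/- TM. Every TPdh-/- TE library was above every other library of the study, and in TM the genotypes overlapped. The difference was 1.33 ± 0.17 in TE (2.51-fold, edgeR adjusted p = 5e-06) and 0.34 ± 0.17 in TM (adjusted p = 0.131), and the interaction was -0.99 ± 0.24 (adjusted p = 0.00455). Usp18 encodes the protease that removes ISG15 and also restrains signalling at IFNAR. It held 1.84, 1.61, 1.05 and 1.59 CPM in WT TE, 10.9, 5.87, 8.28 and 8.98 in TPdh-/- TE, 3.37, 2.35, 2.82 and 1.65 in WT TM, and 6.57, 5.07, 8.79 and 6.78 in TPdh-/- TM. The genotypes did not overlap in either culture. Usp18 was 5.56-fold higher in TE (log2 2.48 ± 0.25, adjusted p = 6.82e-07) and 2.67-fold higher in TM (1.41 ± 0.27, adjusted p = 0.000261), with an interaction of -1.06 ± 0.37 (adjusted p = 0.0328) that was lost in 10 of the 16 fits without 1 library, where adjusted p reached 0.0821. Its exons overlap those of an antisense RNA, Gm44148, of at most 2.5 TPM. Herc6, the ligase that attaches ISG15 in mice, differed by culture more than by genotype: the edgeR fit gave 1.63-fold in TM against TE in WT (log2 0.71 ± 0.08, adjusted p = 1.78e-07) and 1.16-fold between genotypes in TE (0.21 ± 0.08, adjusted p = 0.0336). The latter call was lost in 8 alternatives (adjusted p up to 0.12).

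**Figure D3:**
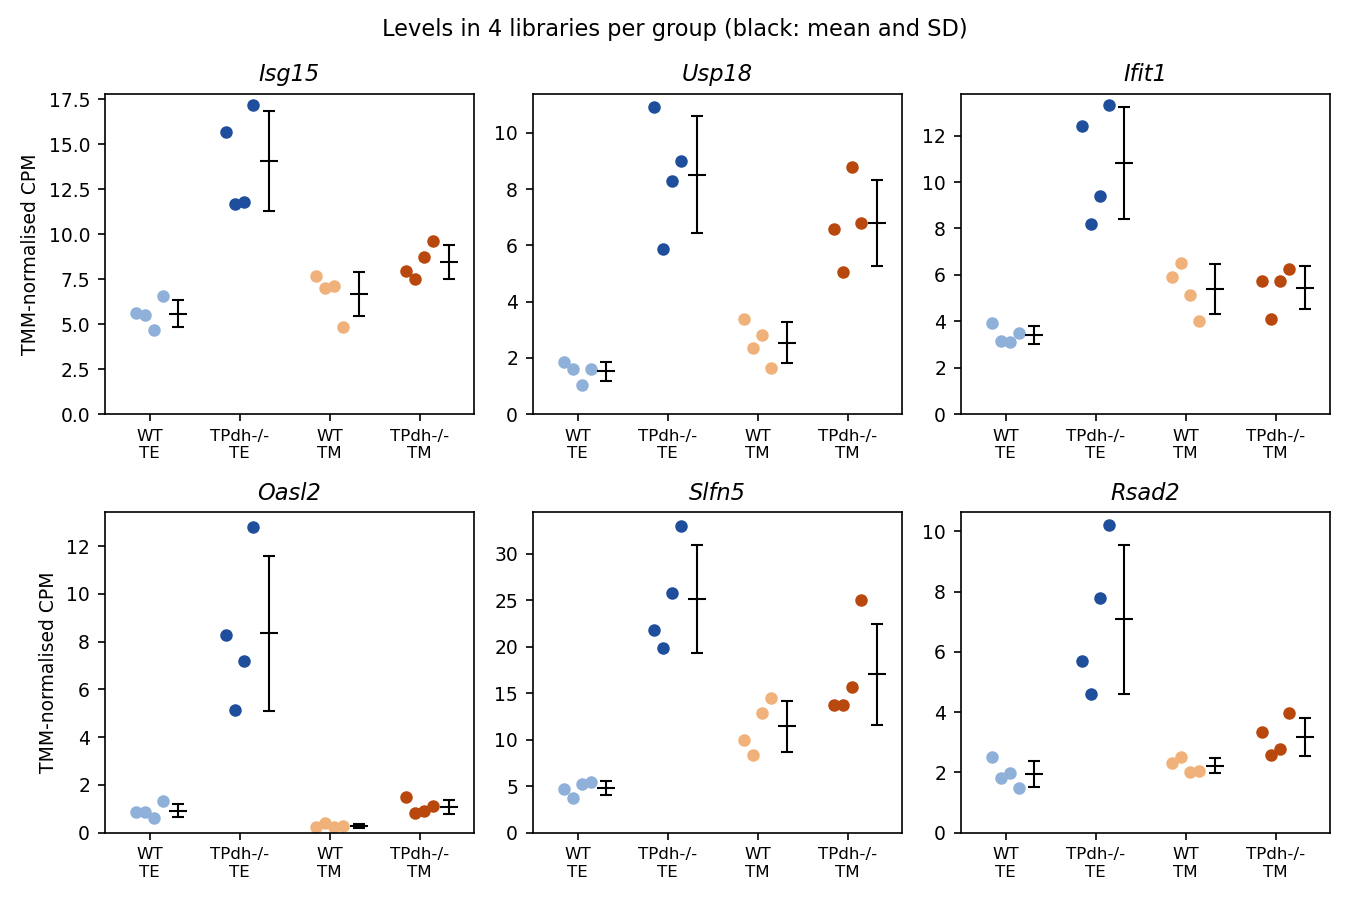
TMM-normalised CPM of 6 genes in each library (points) with the mean and SD of the 4 libraries of a group (black); each panel starts at 0. In all 6 panels the TPdh-/- TE libraries lie above all WT TE libraries.

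The IFIT family binds viral RNA and blocks its translation. Ifit1, Ifit3 and Ifit3b were called higher in TPdh-/- TE, Ifit2 was called lower, and none of the 4 was called between genotypes in TM. Of all genes 17.3% were called higher and 14.3% lower in TE, and 11.0% and 7.27% in TM. Ifit1 held 3.94, 3.15, 3.11 and 3.5 CPM in WT TE, 12.4, 8.18, 9.39 and 13.3 in TPdh-/- TE, 5.93, 6.5, 5.15 and 4.0 in WT TM, and 5.74, 4.12, 5.72 and 6.25 in TPdh-/- TM. Thus the libraries of TPdh-/- TE stood above those of all other groups, while the 2 genotypes overlapped in TM. The difference was 1.66 ± 0.18 in TE (3.16-fold, edgeR adjusted p = 1.96e-06) and 0.02 ± 0.20 in TM (adjusted p = 0.962), with an interaction of -1.64 ± 0.27 (adjusted p = 0.000207).

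Ifit3 held 6.26, 5.2, 4.49 and 5.11 CPM in WT TE, 13.4, 9.08, 12.2 and 15.3 in TPdh-/- TE, 8.77, 8.48, 6.52 and 6.17 in WT TM, and 9.17, 5.39, 7.8 and 7.7 in TPdh-/- TM. It was 2.37-fold higher in TPdh-/- TE (log2 1.25 ± 0.19, edgeR adjusted p = 4e-05) and differed by 0.01 ± 0.21 in TM (adjusted p = 0.989). Summed with its near-identical neighbour Ifit3b, it differed by 1.24 in TE (adjusted p = 3.49e-05). Ifit2 moved against its family. It held 74.5, 71.9, 64 and 69.4 CPM in WT TE, 56.5, 53.6, 57.9 and 53.5 in TPdh-/- TE, 51.4, 50.3, 48.5 and 45.9 in WT TM, and 52.1, 49.5, 53.8 and 59.2 in TPdh-/- TM. WT TE alone stood high, and the other 3 groups were close to each other. The fall in TPdh-/- TE was 1.26-fold (log2 -0.34 ± 0.05, adjusted p = 0.000433), that from TE to TM in WT 1.43-fold (-0.51 ± 0.06, adjusted p = 9.62e-07), and the interaction 0.47 ± 0.08 (adjusted p = 0.00131).

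Several proteins of the OAS family make short oligoadenylates that activate RNase L, and OASL1 represses translation of IRF7 in mice. Oas1b is a polymorphic pseudogene in the gene annotation, and its RNA does not show whether a working protein is made. Of 6 members tested, Oas1a, Oas2, Oasl1 and Oasl2 were called higher in TPdh-/- TE and none lower. In TM Oasl1 and Oasl2 were called higher and Oas3 lower. The shares of all genes called were 17.3% higher and 14.3% lower in TE, and 11.0% and 7.27% in TM. Oasl2 held 0.875, 0.877, 0.639 and 1.32 CPM in WT TE, 8.28, 5.14, 7.2 and 12.8 in TPdh-/- TE, 0.234, 0.426, 0.222 and 0.284 in WT TM, and 1.48, 0.818, 0.921 and 1.12 in TPdh-/- TM. Each TPdh-/- library was above every WT library of the same culture. It was 9.02-fold higher in TE (log2 3.17 ± 0.34, edgeR adjusted p = 2.8e-07) and 3.73-fold higher in TM (1.90 ± 0.26, adjusted p = 0.000704), with an interaction of -1.27 ± 0.43 (adjusted p = 0.063) that was called in 6 alternatives, among them DESeq2 (adjusted p = 0.021) and limma (0.0288).

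Oas2 held 1.64, 1.32, 1.25 and 1.59 CPM in WT TE, 3.74, 2.44, 3.31 and 7.08 in TPdh-/- TE, 1.51, 1.18, 0.839 and 1.2 in WT TM, and 0.705, 0.604, 0.755 and 0.923 in TPdh-/- TM. It thus stood highest in TPdh-/- TE and tended to be lowest in TPdh-/- TM. The difference was 1.51 ± 0.34 in TE (2.85-fold, edgeR adjusted p = 0.000315) and -0.67 ± 0.21 in TM (adjusted p = 0.122). The interaction of Oas2, -2.17 ± 0.40 (adjusted p = 0.00101), was the lowest among the 41 genes. Oas3 was the most abundant OAS gene, at 32.5 TPM in WT TE. It held 121, 126, 137 and 133 CPM in WT TE, 132, 136, 146 and 155 in TPdh-/- TE, 90.3, 78, 78 and 85.4 in WT TM, and 62.8, 59.8, 71 and 76.5 in TPdh-/- TM. TM libraries were below all TE libraries, and within TM the 2 genotypes did not overlap. The edgeR fit put TPdh-/- TM 1.23-fold below WT TM (log2 -0.30 ± 0.10, adjusted p = 0.0118). Oasl1 was low, with at most 106 reads in a library, and was higher without PDH by 2.24 ± 0.24 in TE (adjusted p = 0.000331) and 1.93 ± 0.59 in TM (adjusted p = 0.00651), where its libraries overlapped. Oas1a was called higher in TE (1.08 ± 0.38, adjusted p = 0.0146) although the genotypes overlapped, a call lost without library 3 (0.0527). Oas1b was called in neither culture, though 3 alternatives called it higher in TE (edgeR adjusted p down to 0.0283).

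Among the sensors, Ifih1 and Ddx58 encode MDA5 and RIG-I, which detect double-stranded RNA, Dhx58 encodes LGP2, which modulates both, and Zbp1 encodes a sensor of left-handed nucleic acid. Ifih1 held 12.8, 11.8, 12.3 and 12.9 CPM in WT TE, 18.7, 16.3, 18.4 and 19.9 in TPdh-/- TE, 14.4, 13.3, 13.5 and 12.3 in WT TM, and 21.6, 18.8, 20.6 and 17.4 in TPdh-/- TM. The TPdh-/- libraries of both cultures were all above the WT libraries of both cultures. The difference was nearly the same in TE (0.56 ± 0.07, 1.47-fold, edgeR adjusted p = 3.75e-05) and in TM (0.55 ± 0.08, 1.47-fold, adjusted p = 7.16e-05), with an interaction of 0.00 ± 0.11 (adjusted p = 0.987).

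Dhx58 went opposite ways in the 2 cultures. It held 24.3, 24.7, 23.3 and 24.4 CPM in WT TE, 29.9, 30.4, 32.7 and 38.2 in TPdh-/- TE, 26.1, 23.9, 22.3 and 25.8 in WT TM, and 21.1, 19.1, 20.4 and 18.1 in TPdh-/- TM. TPdh-/- was above WT in all TE libraries and below WT in all TM libraries. It was 1.36-fold higher in TE (log2 0.44 ± 0.08, edgeR adjusted p = 0.000294) and 1.25-fold lower in TM (-0.32 ± 0.07, adjusted p = 0.00764), and the interaction was -0.76 ± 0.11 (adjusted p = 0.000142). Zbp1 held 67.4, 74.4, 56.8 and 65.7 CPM in WT TE, 87.5, 72.6, 72.4 and 76.9 in TPdh-/- TE, 86.3, 80.2, 83 and 81.1 in WT TM, and 118, 99.5, 121 and 130.0 in TPdh-/- TM. Its highest values lay in TPdh-/- TM, without overlap with WT TM, while the TE groups overlapped. The edgeR fit gave 1.42-fold in TM (0.50 ± 0.08, adjusted p = 0.000458) and 1.17-fold in TE (0.23 ± 0.10, adjusted p = 0.0509, called in 5 alternatives, down to 0.00857). Ddx58 was 1.23-fold higher in TM than TE in WT (0.29 ± 0.04, adjusted p = 9.51e-05), and 1.15-fold higher in TPdh-/- TM than WT TM (0.20 ± 0.04, adjusted p = 0.012).

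**Figure D4:**
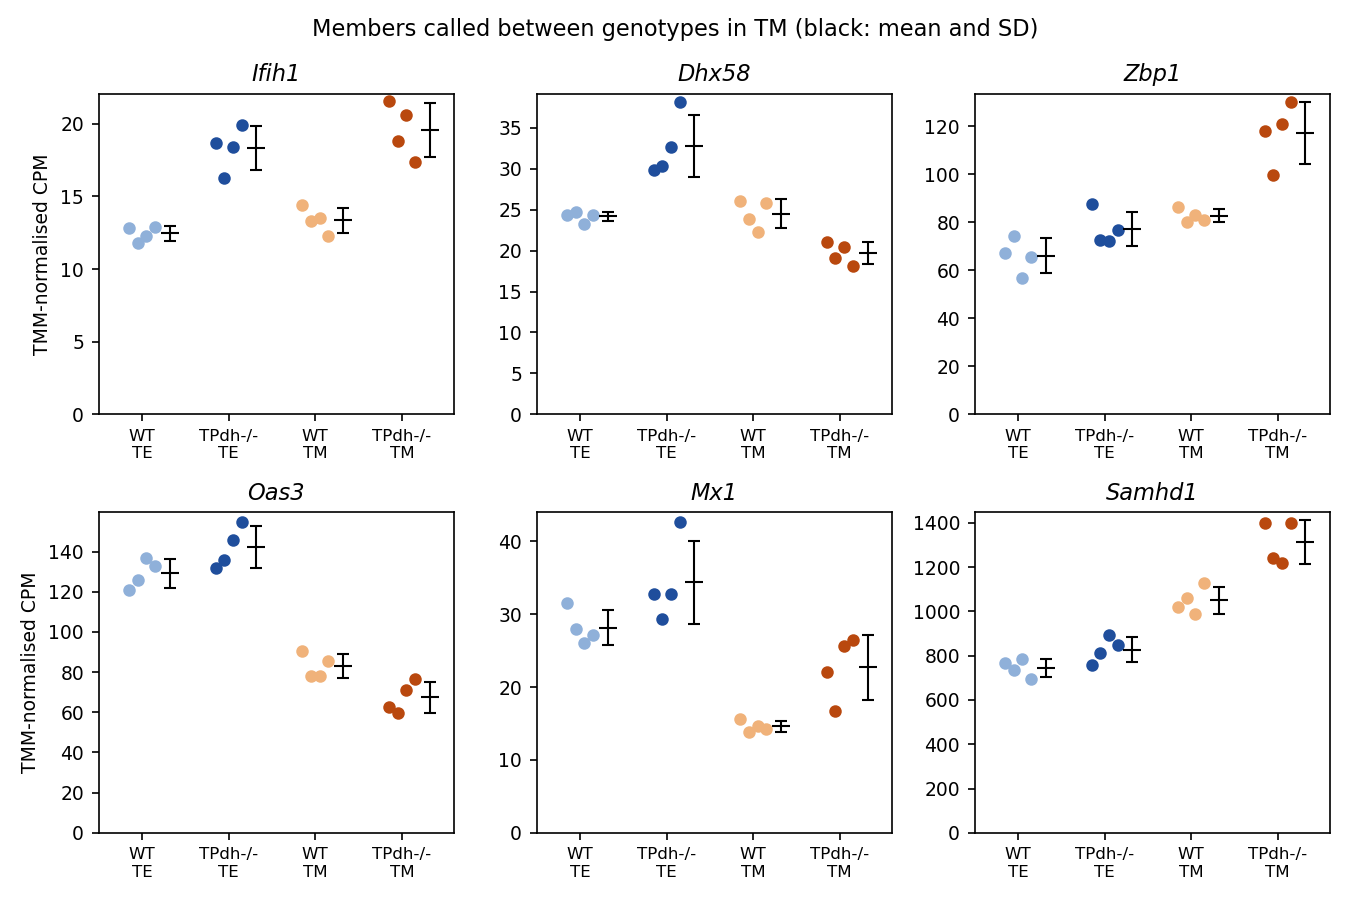
TMM-normalised CPM of 6 genes called between genotypes in TM, in each library (points) with the mean and SD of the 4 libraries of a group (black); each panel starts at 0. In TM, Ifih1, Zbp1, Mx1 and Samhd1 are higher and Dhx58 and Oas3 lower in the TPdh-/- libraries than in all WT libraries.

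Of 9 antiviral enzymes and restriction factors, 6 were called higher in TPdh-/- TE, 2 others in TPdh-/- TM, and none lower in either. Over all genes 17.3% were called higher and 14.3% lower in TE, and 11.0% and 7.27% in TM. Rsad2 encodes viperin, which makes a chain-terminating nucleotide. It held 2.5, 1.83, 1.98 and 1.47 CPM in WT TE, 5.71, 4.59, 7.79 and 10.2 in TPdh-/- TE, 2.32, 2.52, 2.02 and 2.05 in WT TM, and 3.35, 2.58, 2.79 and 3.98 in TPdh-/- TM. The genotypes did not overlap in either culture, with a larger gap in TE. The difference was 1.85 ± 0.29 in TE (3.62-fold, edgeR adjusted p = 6.86e-06) and 0.51 ± 0.16 in TM (adjusted p = 0.121), and the interaction was -1.34 ± 0.33 (adjusted p = 0.00661). Cmpk2, its neighbour on chromosome 12, was 1.26-fold higher in TE (0.33 ± 0.13, adjusted p = 0.0311), a call lost without library 2, 3, 7 or 8 (adjusted p up to 0.131).

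Mx1 and Mx2 belong to a family of dynamin-like GTPases, members of which block viruses. Mx2 is a polymorphic pseudogene in the gene annotation. Whether a working protein is made from either RNA in these mice was not tested. Mx1 held 31.5, 28, 26 and 27.2 CPM in WT TE, 32.8, 29.3, 32.8 and 42.6 in TPdh-/- TE, 15.6, 13.9, 14.7 and 14.3 in WT TM, and 22.1, 16.7, 25.7 and 26.5 in TPdh-/- TM. TE libraries were above TM libraries of the same genotype, and the genotypes overlapped only in TE. Mx1 was 1.56-fold higher in TPdh-/- TM (0.64 ± 0.16, edgeR adjusted p = 0.00186). In TE it differed by 0.29 ± 0.13 (adjusted p = 0.0901, called with library totals, 0.0295, and without library 14, 0.041), and the interaction was 0.35 ± 0.20 (adjusted p = 0.199, called without library 14, 0.033). It was 1.93-fold lower in TM than TE in WT (-0.95 ± 0.07, adjusted p = 4.06e-06). Mx2 was far lower, with at most 106 reads in a library. It held 0.265, 0.227, 0.224 and 0.277 CPM in WT TE and 1.05, 0.485, 0.901 and 1.9 in TPdh-/- TE, against 0.406, 0.315, 0.24 and 0.217 in WT TM and 0.413, 0.498, 0.317 and 0.444 in TPdh-/- TM. It was 4.29-fold higher in TPdh-/- TE (2.10 ± 0.40, adjusted p = 0.000159) and was not called in TM (0.49 ± 0.22, adjusted p = 0.372). Its interaction (-1.61 ± 0.45, adjusted p = 0.0349) was lost in 10 of the 16 fits without 1 library (adjusted p up to 0.0896).

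Samhd1, the most abundant of these genes in TM, held 767, 734, 784 and 695 CPM in WT TE, 758, 811, 894 and 847 in TPdh-/- TE, 1020.0, 1060.0, 989 and 1130.0 in WT TM, and 1400.0, 1240.0, 1220.0 and 1400.0 in TPdh-/- TM. All TM libraries were above all TE libraries, and the TPdh-/- TM libraries were above all others. The edgeR fit gave 1.41-fold for TM against TE in WT (log2 0.49 ± 0.06, adjusted p = 4.03e-06) and 1.25-fold between genotypes in TM (0.33 ± 0.07, adjusted p = 0.00211). Trim30a, which in mice restrains Toll-like receptor signalling, was 1.43-fold higher in TM than in TE of WT cells (0.52 ± 0.08, adjusted p = 2.5e-06) and was not called between genotypes in either culture (adjusted p = 0.425 in TE and 0.297 in TM). Isg20, an RNA exonuclease, was 1.75-fold higher in TPdh-/- TE (0.81 ± 0.10, adjusted p = 4.37e-05), and its interaction was lost without library 1 or 4 (adjusted p up to 0.0526). Eif2ak2, which encodes the RNA-activated kinase PKR, was 1.34-fold higher there (0.43 ± 0.06, adjusted p = 1.74e-05), and Bst2, which encodes tetherin, a protein that holds budding virus at the membrane, 1.3-fold (0.38 ± 0.07, adjusted p = 0.00275). In TM these 3 genes were not called (adjusted p from 0.0801 to 0.179).

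The IFITM genes, whose membrane proteins block fusion of entering viruses, had the greatest change with culture and the least like the other families. Ifitm1 held 1130.0, 1060.0, 995 and 1040.0 CPM in WT TE, 381, 433, 370.0 and 391 in TPdh-/- TE, 10, 13.2, 8.23 and 5.79 in WT TM, and 8.53, 10.7, 8.86 and 25.4 in TPdh-/- TM. The TE genotypes were wide apart and the TM genotypes overlapped. In WT, Ifitm1 was 114-fold lower in TM than in TE (log2 -6.83 ± 0.25, edgeR adjusted p = 2.11e-11), and in TE it was 2.69-fold lower without PDH (-1.43 ± 0.06, adjusted p = 0.000447). With 24 genes called higher there, Ifitm1 and Ifit2 were the only 2 of the 41 called lower in TPdh-/- TE.

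Ifitm2 held 314, 299, 316 and 341 CPM in WT TE, 210.0, 239, 224 and 246 in TPdh-/- TE, 2.03, 2.15, 2.36 and 1.52 in WT TM, and 4.33, 4.73, 5.68 and 12.4 in TPdh-/- TM. Without PDH its libraries were lower in TE and higher in TM, with no overlap in either culture. It was 158-fold lower in WT TM than WT TE (-7.30 ± 0.14, edgeR adjusted p = 1.65e-12) and 34.0-fold lower in TPdh-/- TM than TPdh-/- TE (-5.09 ± 0.35, adjusted p = 1.77e-11). The genotype difference was 1.75 ± 0.37 in TM (3.37-fold, adjusted p = 0.000168) and -0.46 ± 0.06 in TE (adjusted p = 0.0803), and the interaction was 2.22 ± 0.38 (adjusted p = 0.00022), the highest of the 41. Ifitm3 held 94.1, 96.2, 85 and 92.4 CPM in WT TE, 108, 115, 89.5 and 128 in TPdh-/- TE, 1.76, 1.68, 1.92 and 0.834 in WT TM, and 3.96, 3.89, 5.31 and 8.71 in TPdh-/- TM. It was 59.3-fold lower in TM than in TE of WT cells (-5.89 ± 0.27, adjusted p = 4.05e-12) and 3.53-fold higher in TPdh-/- TM than in WT TM (1.82 ± 0.38, adjusted p = 6.96e-05).

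Library 16 (TPdh-/- TM) was the highest of its group for all 3 IFITM genes. Without it, the genotype difference in TM was 1.29 for Ifitm2 (edgeR adjusted p = 2.56e-06) and 1.51 for Ifitm3 (adjusted p = 6.32e-05), and 0.01 for Ifitm1 (adjusted p = 0.98). The difference of Ifitm2 in TE, which the full fit did not call, then had adjusted p = 0.000423. The exons of Ifitm2 overlap those of Gm45717, of at most 0.8 TPM. The 3 interactions stayed called, at 1.45, 1.77 and 1.26 for Ifitm1, Ifitm2 and Ifitm3.

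**Figure D5:**
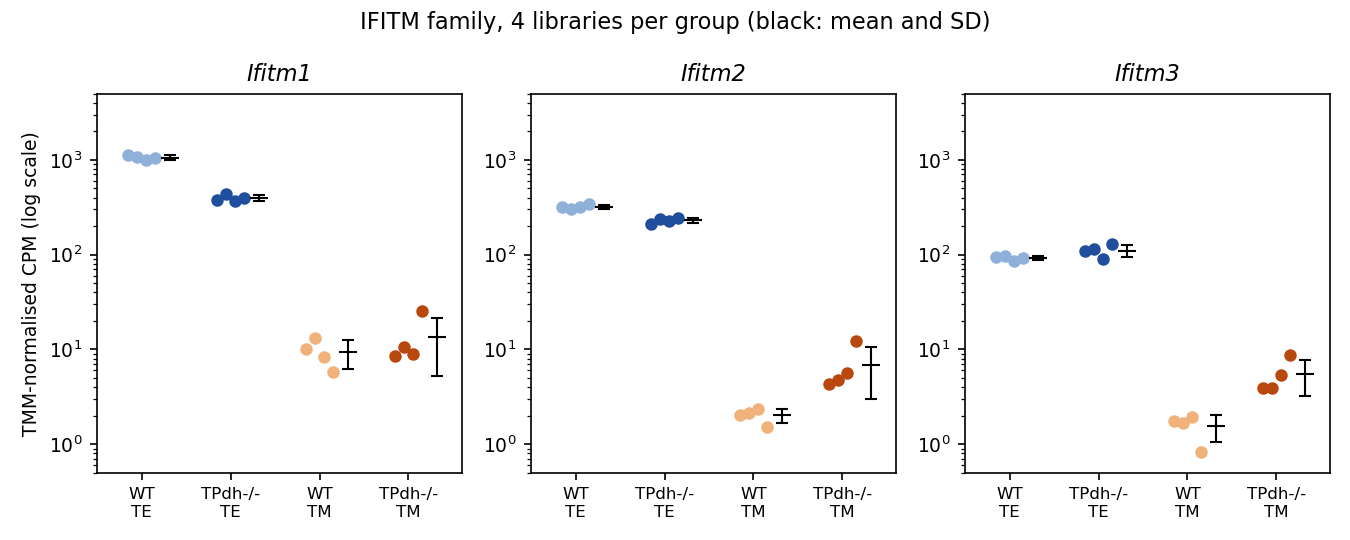
TMM-normalised CPM of the 3 IFITM genes in each library (points) on a log axis, with the mean and SD of the 4 libraries of a group (black). Levels fall from TE to TM in both genotypes, less so in TPdh-/- cells, and library 16 is the highest point of TPdh-/- TM in each panel.

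The PARP9 group comprises the ADP-ribosyltransferases PARP9 and PARP14 and the ligase DTX3L, which pairs with PARP9. All 3 were called higher in TPdh-/- TM, by small amounts: Parp9 1.16-fold (0.21 ± 0.04, edgeR adjusted p = 0.00671), Dtx3l 1.22-fold (0.28 ± 0.06, adjusted p = 0.001) and Parp14 1.12-fold (0.16 ± 0.05, adjusted p = 0.0269). Over all genes 11.0% were called higher in TM and 17.3% in TE. Parp9 held 159, 146, 148 and 148 CPM in WT TE, 162, 146, 156 and 165 in TPdh-/- TE, 120.0, 117, 118 and 120.0 in WT TM, and 135, 128, 139 and 147 in TPdh-/- TM. Its libraries were low in WT TM, and overlapped between genotypes in TE. Dtx3l held 232, 223, 229 and 216 CPM in WT TE, 230.0, 224, 240.0 and 242 in TPdh-/- TE, 210.0, 211, 196 and 212 in WT TM, and 264, 232, 242 and 268 in TPdh-/- TM. Parp9 and Dtx3l share 367 exonic bases on opposite strands, and the libraries do not keep strand, so reads there could not be told apart. In TE Parp14 was the 1 called gene of the group (0.22 ± 0.03, 1.17-fold, adjusted p = 0.0019), and its call in TM was lost in 6 alternatives (adjusted p up to 0.102). The interaction of Dtx3l (0.23 ± 0.07, adjusted p = 0.0467) was lost in 13 (up to 0.167).

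Of 5 other interferon-inducible genes, Ifi44, Ifi35 and Rtp4 were called higher in TPdh-/- TE, Ifi44 also in TPdh-/- TM, and Ifi27 and Xaf1 in neither. The shares of all genes called higher were 17.3% in TE and 11.0% in TM. Rtp4, which encodes a chaperone of membrane receptors, held 11.9, 9.26, 7.87 and 9.44 CPM in WT TE, 21, 14.1, 18.9 and 25.9 in TPdh-/- TE, 17.6, 15.6, 12.1 and 11.4 in WT TM, and 22.8, 15.1, 20.1 and 22.5 in TPdh-/- TM. All TPdh-/- TE libraries were above WT TE, and the TM genotypes overlapped. The difference was 1.05 ± 0.22 in TE (2.08-fold, edgeR adjusted p = 0.000328) and 0.51 ± 0.20 in TM (adjusted p = 0.0622, called in 6 alternatives, down to 0.0272). Ifi35 held 43.4, 43.5, 38.1 and 40.9 CPM in WT TE, 62.6, 54.7, 47.5 and 58.5 in TPdh-/- TE, 55.4, 53.4, 53.7 and 51.8 in WT TM, and 56.8, 56.4, 60.1 and 57.7 in TPdh-/- TM. WT TE stood below the other 3 groups, with 1.35-fold to TPdh-/- TE (0.43 ± 0.10, adjusted p = 0.00016) and 1.29-fold to WT TM (0.37 ± 0.05, adjusted p = 0.000143). Its interaction (-0.32 ± 0.10, adjusted p = 0.0339) was lost in 12 alternatives (up to 0.0887). Ifi44 rested on few reads, 2 to 6 in each WT TE library, 21 to 51 in TPdh-/- TE, 3 to 8 in WT TM and 11 to 38 in TPdh-/- TM. It did not overlap between genotypes in either culture, and the fit gave 3.28 ± 0.41 in TE (adjusted p = 7.36e-05) and 2.55 ± 0.42 in TM (adjusted p = 0.000965). In TPM, as deposited, the ratio of means was smaller, 3.0-fold in TE (0.0825 and 0.2475 TPM) and 2.67-fold in TM (0.09 and 0.24 TPM), and the genotypes overlapped in both cultures, so its size depends on the unit. Xaf1, a gene linked to cell death, was not called in any of the 5 comparisons, the smallest adjusted p among them being 0.0605, nor was Ifi27, though alternatives called Xaf1 in 3 of the comparisons and Ifi27 in 1.

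The Schlafen family, named for its role in mouse thymocyte quiescence, ranged from Slfn2 at 216 TPM to Slfn5 at 0.953 TPM in WT TE. Slfn5 held 4.7, 3.73, 5.24 and 5.46 CPM in WT TE, 21.8, 19.9, 25.8 and 33.0 in TPdh-/- TE, 10, 8.4, 12.9 and 14.5 in WT TM, and 13.7, 13.7, 15.7 and 25 in TPdh-/- TM. WT TE was lowest and TPdh-/- TE highest by mean, and the TM genotypes overlapped. The difference was 2.39 ± 0.20 in TE (5.25-fold, edgeR adjusted p = 4.94e-07) and 0.57 ± 0.27 in TM (adjusted p = 0.0659, called in 5 alternatives, down to 0.0306), with an interaction of -1.82 ± 0.34 (adjusted p = 0.000488). Slfn8 held 59.1, 48.1, 55.1 and 53.9 CPM in WT TE, 64.7, 60.1, 66.6 and 78.4 in TPdh-/- TE, 88.6, 85.7, 89.3 and 88.3 in WT TM, and 117, 103, 110.0 and 120.0 in TPdh-/- TM. The 4 groups did not overlap and rose in that order. Without PDH it was 1.25-fold higher in TE (0.32 ± 0.10, adjusted p = 0.00395) and 1.28-fold higher in TM (0.35 ± 0.05, adjusted p = 0.00317). Slfn1 was 1.22-fold higher in TM than TE in WT (0.28 ± 0.05, adjusted p = 0.00443) and had adjusted p = 0.0579 between genotypes in TM, where 6 alternatives called it (down to 0.0191). Slfn2, needed for T cell quiescence in mice, was called in none of the 5 comparisons, other than TM against TE in TPdh-/- without library 8 (adjusted p = 0.00956), and its difference in TE (-0.03 ± 0.08) changed sign, to 0.05, with no TMM scaling.

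TM was compared with TE within each genotype, to ask how the memory culture itself relates to these genes. In WT 17 of 41 were called higher and 10 lower in TM, where 34.3% of all genes were called higher and 34.3% lower. In TPdh-/- 10 were called higher and 20 lower, where 33.0% of all genes were called higher and 34.7% lower. The median difference was 0.19 in WT and -0.25 in TPdh-/-, against 0.0076 and -0.0031 over all genes. These comparisons use the same libraries as the genotype comparisons and are not further evidence of them. Ifit1 was 1.57-fold higher in WT TM than WT TE (0.65 ± 0.17, edgeR adjusted p = 0.00316) and 1.98-fold lower in TPdh-/- TM than TPdh-/- TE (-0.99 ± 0.21, adjusted p = 6.21e-05), and Slfn5 likewise rose 2.40-fold in WT (1.26 ± 0.22, adjusted p = 6.45e-05) and fell 1.47-fold in TPdh-/- (-0.56 ± 0.26, adjusted p = 0.0218, lost in 4 alternatives). Ifit3 and Ifit3b were also called in opposite directions, with the WT call lost without library 3 or 9 for Ifit3 (adjusted p up to 0.0603) and without library 9 or 10 for Ifit3b (up to 0.0707). Others went the same way in both genotypes: Oasl2 fell 3.18-fold in WT (-1.67 ± 0.28, adjusted p = 0.000334) and 7.70-fold in TPdh-/- (-2.94 ± 0.33, adjusted p = 5.42e-08), and Samhd1, Trim30a, Ddx58, Zbp1, Herc6, Oas1b, Cmpk2, Parp14, Slfn1 and Slfn8 rose in both.

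Libraries of a group differed in their general level of these genes. The median over 41 genes of log2 CPM minus the group mean ran from -0.177 in library 6 to 0.192 in library 8 within TPdh-/- TE, and from -0.163 in library 14 to 0.097 in library 16 within TPdh-/- TM. In library 8 37 of the 41 genes were above the group mean, in library 6 only 3, and in library 14 only 2. In WT the range was -0.111 to 0.09, and the same median over all genes stayed within -0.022 and 0.018. Without library 8 the calls of Cmpk2 and Herc6 in TE, the TM against TE call of Slfn5 in TPdh-/- and the interactions of Usp18, Mx2 and Ifi35 were lost, while those of Isg15, Ifit1, Oasl2 and Slfn5 between genotypes in TE were kept.

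Genes listed as markers of other cell types were summed, and several sums differed between genotypes. In bulk RNA, fewer cells of a type and less RNA per cell cannot be told apart. The summed level of 9 natural killer cell markers was 14 to 18.3 TPM in WT TE and 15.8 to 27.6 in TPdh-/- TE, and 7.28 to 11.9 in WT TM and 89.3 to 139 in TPdh-/- TM. In TE Klrc2 averaged 4.27 TPM in WT and 2.98 in TPdh-/-, and Klrb1c 1.41 and 1.4, while the rest of the list was higher. The list includes killer-like receptor genes. The paper reports that gene family as raised in TPdh-/- TM cells and reads it as a marker of an effector state of the T cells. For that reading it also names granzymes, its cell killing assays, and lipopolysaccharide and interferon gamma as upstream regulators. The sum of 10 macrophage and monocyte markers was 11.5 to 15.3 TPM in WT TE and 15.3 to 25.2 in TPdh-/- TE, and 6.34 to 6.9 in WT TM and 25.2 to 41.8 in TPdh-/- TM, where Lyz2 averaged 24.1 TPM and Csf1r 0.532. In TE Itgam averaged 2.07 TPM in WT and 0.837 in TPdh-/-, while the rest of this list was higher. Of 5 plasmacytoid dendritic cell markers other than Bst2, Siglech was at or below 0.01 TPM in every library, and the summed level, mostly Runx2, was 19.5 to 30.7 TPM over all 16 libraries. The 6 gamma-delta T cell markers summed to 90.5 to 101 TPM in WT TE, 195 to 317 in TPdh-/- TE, 56.1 to 63.8 in WT TM and 159 to 187 in TPdh-/- TM. The 6 conventional dendritic cell markers summed to 5.68 to 6.97 TPM in WT TE and 5.15 to 13.4 in TPdh-/- TE, and to 1.09 to 2.57 in WT TM and 9.14 to 18.4 in TPdh-/- TM. In TE the means of Itgax (3.07 to 2.03 TPM) and Xcr1 (2.96 to 1.02) fell from WT to TPdh-/-. Batf3 rose there from 0.422 to 5.06 TPM, and the other markers of this list stayed under 0.2 TPM. In TM all 6 means were higher without PDH. The 5 B cell markers summed to 6.84 to 7.81 TPM in WT TE and 8.0 to 9.82 in TPdh-/- TE and overlapped in TM, the 3 CD4 T cell markers, mostly Zbtb7b, summed to 2.78 to 4.22 in WT TM and 5.36 to 9.38 in TPdh-/- TM and overlapped in TE, and neutrophil markers summed to at most 1.88 TPM. The part of these levels, and of the lower T cell marker sum, in the differences of the interferon-stimulated genes was not tested.

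Upstream genes of the pathway were looked at from lists of ligands, receptors, signalling proteins, regulatory factors, sensing adaptors and feedback genes. RNA of the type I ligands was at the limit of detection. Of 18 looked up, 11, Ifnb1 among them, had 0 reads in every library, and the other 7 summed to 2 to 14 reads per library, with no more than 8 for any ligand. A count of 0 allows up to 3 reads, which is 0.0408 to 0.0566 CPM in these libraries, and intervals of this kind cover counting error only. Ifng, the type II ligand, held 10.2, 7.95, 14.8 and 8.46 TPM in WT TM and 20.1, 18.8, 20.7 and 24.4 in TPdh-/- TM, without overlap (1.08, edgeR adjusted p = 0.000888), and was not called in TE (0.46, adjusted p = 0.0948).

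Of the receptors tested, Ifnar1 was called between genotypes in neither culture, and Ifnar2 was called lower in TPdh-/- TM (-0.21, edgeR adjusted p = 0.00966). Ifngr2, a chain of the interferon gamma receptor, rose in both TE (0.97, adjusted p = 2.46e-07) and TM (0.44, adjusted p = 0.00108). Of the signalling genes, Stat2 was called higher (0.33, adjusted p = 0.00243) and Jak1 lower (-0.56, adjusted p = 1.29e-06) in TPdh-/- TE, and Irf9 was called higher in TPdh-/- TM (0.24, adjusted p = 0.0104). Of 6 regulatory factors none was called in TE and 3 were higher in TM, Irf1 (0.89, adjusted p = 1.94e-07), Irf8 (1.10, adjusted p = 2.89e-05) and Irf5 (0.55, adjusted p = 0.0267). Of all genes 17.3% were called higher and 14.3% lower in TE, and 11.0% and 7.27% in TM. Irf7, itself induced by type I interferon, was called in neither (0.11 in TE, adjusted p = 0.356, and 0.06 in TM, adjusted p = 0.689).

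Of 16 sensing and adaptor genes 4 were called higher and 3 lower in TPdh-/- TE, and 5 higher and 1 lower in TPdh-/- TM, beside 17.3% higher and 14.3% lower of all genes in TE and 11.0% and 7.27% in TM. Tlr7, which detects single-stranded RNA in endosomes, was higher in TE (3.10, edgeR adjusted p = 2.9e-08) and TM (1.40, adjusted p = 6.09e-05), as was Ifi204, a DNA sensor of mice (2.98, adjusted p = 8.59e-08, and 2.81, adjusted p = 0.000861). Tlr7 reached at most 2.53 TPM in a library. Ifi204 held 1.0 to 1.46 TPM in WT TE and 7.28 to 15.9 in TPdh-/- TE, and at most 0.35 TPM in TM. Ddx60, an interferon-inducible helicase, was also higher in TE (1.16, adjusted p = 4.81e-06) and in TM (0.37, adjusted p = 0.0416). Of 12 genes for removal of nucleic acid and for feedback 3 were called higher and 4 lower in TE, and 0 higher and 1 lower in TM. Socs1, an inhibitor of JAK kinases, was 0.78 higher in TE (adjusted p = 1.89e-05) and 0.03 in TM (adjusted p = 0.881), with an interaction of -0.75 (adjusted p = 0.00192). Adar, whose RNA-editing enzyme keeps the cell's own double-stranded RNA from being sensed, was 0.22 higher in TE (adjusted p = 0.00745), and Ptpn6, a phosphatase that dampens signalling, was lower in both TE (-0.44, adjusted p = 0.0006) and TM (-0.76, adjusted p = 5.17e-06).

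The genes with an ISRE core in the window and those without it were set side by side, as a description without a test. Of 12 tested genes with the core, 9 were called higher and 0 lower in TPdh-/- TE, with a median difference of 1.13. Of 18 tested genes without it, 9 were called higher and 2 lower, with a median of 0.24. Over all genes 17.3% were called higher and 14.3% lower. In TM the counts were 2 higher and 1 lower of 12 (median 0.29) and 8 higher and 0 lower of 18 (median 0.23). There 11.0% of all genes were called higher and 7.27% lower. The interaction was called below 0 for 7 of the 12, namely Ifit1, Ifit3, Ifit3b, Oas3, Isg15, Rsad2 and Slfn5, and for 3 of the 18, namely Isg20, Eif2ak2 and Ifi35. Ifitm2, with the core, and Ifit2, Ifitm1, Ifitm3 and Dtx3l, without it, were called above 0. For the interaction 7.51% of all genes were called below 0 and 8.05% above. Ifit3 and Ifit3b, whose stretches are the same and whose reads may be shared, were counted as separate genes here. Slfn5 was counted with the core by its later RefSeq start. Oasl2 and Oasl1, without the core in the window, were 9.02-fold and 4.72-fold higher in TPdh-/- TE. The 11 genes not in the promoter table, among them Usp18, Oas2, Mx2 and Rtp4, are in neither set.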

How the data were processed

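Poly(A) RNA was prepared by an unstranded TruSeq kit for the NovaSeq. By the submitters' processing notes, STAR 2.7.6a was the aligner, RSEM 1.3.3 the quantifier and mm10 (GRCm38) the build. The tables they deposited hold expected counts, which were rounded here, and TPM, which the authors scaled for gene length and library total. FPKM was not used. Gene names came from GENCODE M21, and 55141 of 55401 identifiers (99.5%) matched. Genes with few counts were removed with filterByExpr (minimum count 10, total 15), leaving 15277. TMM factors and a quasi-likelihood model with a mean for each of the 4 groups were computed on all 16 libraries in edgeR 4.0.16 (R 4.3.3), with adjustment by Benjamini-Hochberg in each of 5 contrasts. SE came from log2 CPM with a prior count of 2. TPM carries no TMM factor: among genes over 1 TPM in both groups its median log2 ratio was 0.122 between genotypes in TE and 0.19 between TM and TE in WT. DESeq2 1.42.0, limma 3.58.1 and other alternatives were also run. Pairs of libraries within a group differed by 8.11 to 70.3 chi-square per degree of freedom, more than counting error. In WT TM pairs with library 12 gave 53.7 to 70.3 and other pairs 9.13 to 15.9. The highest values in TPdh-/- TE, 61.3 and 45.6, were of pairs with library 5. An alternative left out libraries 5 and 12. Without library 12 Isg15, Ifi27, Xaf1 and Oasl1 were called for TM against TE in WT. The method was tested on simulated data. The 42 genes and the lists were chosen with earlier results of these data known. Exons of 12 of the 42 genes overlap another gene, which unstranded reads cannot separate. Genes given by library were up to 3 of each role group with the smallest adjusted p and 0.5 TPM or more in the highest group, members that moved against their group, and, for pathway lists, ligands and up to 3 genes each by adjusted p between genotypes. Other genes with values, among them Rsad2, Mx2, Ifi44, Zbp1, Ifnar1 and Irf7, were chosen after their values were seen. A signalling gene is not reported here. RefSeq promoters gave the sequences. Tables were prepared and drawn with Python 3.11.15, numpy 2.4.6, pandas 2.3.3 and matplotlib 3.10.9.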

Additional observations from a re-analysis of the deposited data

Results flagged for a closer look

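The genotype difference depended on the culture for 19 of the 41 genes by the edgeR interaction test, where 7.51% of all genes were called below 0 and 8.05% above. Those of Usp18, Mx2, Ifi35, Dtx3l and Isg20 were lost in 2 to 13 alternatives. The interaction (log2, TM minus TE) was below 0 for Oas2 (-2.17), Slfn5 (-1.82), Ifit1 (-1.64), Mx2 (-1.61), Ifit3b (-1.41), Rsad2 (-1.34), Ifit3 (-1.24), Usp18 (-1.06), Isg15 (-0.99), Dhx58 (-0.76), Isg20 (-0.58), Oas3 (-0.43), Ifi35 (-0.32) and Eif2ak2 (-0.3). It was above 0 for Ifitm2 (2.22), Ifitm1 (1.95), Ifitm3 (1.56), Ifit2 (0.47) and Dtx3l (0.23).

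In 9 of 164 sets of 4 libraries (41 genes in 4 groups) a library lay far from the others of its group by Dixon's test, which chance does in about 1 of 20 groups. In TPdh-/- TE these were library 5 for Isg20 (24.4 CPM) and library 8 for Bst2 (32.1 CPM). In TPdh-/- TM they were library 13 for Oas1b (19.7 CPM) and library 16 for Ifitm1 (25.4 CPM) and Ifitm2 (12.4 CPM). In WT TM they were library 10 for Cmpk2 (15.6 CPM), library 12 for Isg20 (9.46 CPM) and library 11 for Dtx3l (196.0 CPM), and in WT TE library 1 for Parp9 (159.0 CPM).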

How the results depend on the processing

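No paired analysis was possible because each library has a number of its own and no number is shared between groups. Counts of called genes stayed within 1.5 times the reported ones in 8 alternatives and 16 fits without 1 library. Without 1 library they ran, between genotypes, from 14 to 18 higher and 2 to 3 lower in TM and from 21 to 26 higher and 2 to 3 lower in TE. For TM against TE they ran from 13 to 20 higher and 9 to 11 lower in WT and from 9 to 12 higher and 19 to 20 lower in TPdh-/-, and for the interaction from 4 to 7 above 0 and 11 to 14 below. The widest move was in TE with library totals in place of TMM factors, where 33 genes were higher and 2 lower, and where all genes split 3710 higher to 1242 lower in place of 2641 to 2182; the interaction then split 921 above 0 to 1801 below in place of 1230 to 1148, with 4 and 15 of the 41 genes. Of 119 called differences 103 were called in every alternative that gave a value, 16 were lost in at least 1, and 0 changed sign. Of 86 differences not called, 27 were called in at least 1. With library totals Slfn2, not called, turned from -0.03 to 0.05 in TE and from -0.0258 to 0.0585 for TM against TE in WT. These are 2 of 71 changes of sign, all among differences called neither way. Ifi44, Oasl1 and Mx2 had at most 106 reads in a library, which limits their fold changes.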
